A study of Mus musculus with 12 samples.

Results

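Slc7a11 and 9 further genes of amino acid and peptide transport were followed through mouse ear skin injected with IL-17A, IL-36γ or both. The set held Slc7a11, Slc7a5, Slc7a7, Slc7a8, Slc3a2, Slc7a1, Slc7a2, Slc1a5, Slc6a14 and Slc15a2, which are 10 of the 50684 genes counted, and each was matched by its symbol to 1 Ensembl gene. The set was chosen with differences between these libraries in view, so every comparison counts as used, and the fold changes and calls of the 10 genes are a description without a test. All 10 were among the 19408 genes that passed the filter on low counts.

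The 12 libraries came from the ear skin of 8-week-old female C57BL/6 mice, with no engineered allele named for any group. Ears were injected intradermally with 5 µL of PBS, with no cytokine, with 1 µg of IL-17A, with 1 µg of IL-36γ or with 1 µg of each, written IL-17A + IL-36γ or the combination. Treatment ran over consecutive days, with the number of injections not stated, and tissue was taken on day 4. In all, 3 libraries of 3 mice were sequenced in each of the 4 groups. The injection delivers recombinant cytokine into normal skin, and a piece of whole ear tissue was homogenised, with no sorting of cells. A level in such bulk RNA cannot separate a change in the number of cells of a type from a change in RNA per cell.

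Cells take up most amino acids through solute carriers. The SLC7 light chains xCT (Slc7a11), LAT1 (Slc7a5), y+LAT1 (Slc7a7), LAT2 (Slc7a8), y+LAT2 (Slc7a6) and Asc-1 (Slc7a10) carry the substrate but reach the cell surface only as a disulfide-linked pair with a glycoprotein heavy chain, 4F2hc, the product of Slc3a2. xCT imports cystine in exchange for glutamate, and the cystine is reduced to cysteine, the limiting building block of glutathione. The cationic transporters Slc7a1 and Slc7a2 (CAT1 and CAT2) import arginine and lysine without a heavy chain, ASCT2 (Slc1a5) exchanges glutamine, ATB0,+ (Slc6a14) is a concentrative carrier of neutral and cationic amino acids, and PEPT2 (Slc15a2) carries dipeptides and tripeptides. Slc3a2 is thus a chaperone rather than a carrier, and Slc15a2 a peptide transporter. Slc7a11 is a known target of the transcription factors ATF4, which acts through amino acid response elements, and NRF2, which acts through antioxidant response elements.

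The proximal promoter of Slc7a11 is shown because this gene had the widest range over the groups and because it held a motif that is rare among promoters. It is the 250 bases before the RefSeq start, chr3:50443614-50443863 on the minus strand of GRCm38.p6, written 5′ to 3′ in the direction of transcription. Capitals mark the amino acid response element TGATGCAA on either strand. The stretch around the single match of Slc7a7, at chr14:54417926-54417957 on the minus strand, is given beneath it.
Slc7a11: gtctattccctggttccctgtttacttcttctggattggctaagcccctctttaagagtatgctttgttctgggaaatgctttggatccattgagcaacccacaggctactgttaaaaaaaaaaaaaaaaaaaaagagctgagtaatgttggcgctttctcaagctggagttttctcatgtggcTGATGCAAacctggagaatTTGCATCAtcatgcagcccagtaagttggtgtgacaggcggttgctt
Slc7a7: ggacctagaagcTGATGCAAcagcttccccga

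In the Slc7a11 promoter the motif lay once on the coding strand, with its first base at -66, and once on the other strand, at -47. RefSeq promoters of 250 bases before and 50 after the start were available for 7 of the 10 genes, and Slc7a2, Slc7a5 and Slc1a5 were not matched. TGATGCAA was present in 0.895% of the 32851 promoters of the table, and among the 7 genes in Slc7a11 and Slc7a7 only. The antioxidant response element core TGACNNNGC, searched on both strands, was present in 12.4% of all promoters and in Slc7a1 alone of the 7 genes. The κB letters GGGNNTTTC, in 4.36% of all promoters, and the STAT letters TTCCNGGAA, in 1.15%, were found in none of the 7. Counted by gene instead of by promoter, the shares of the 4 motifs were 1.03%, 14.0%, 5.06% and 1.35% in the order named. These are matches of letters in a window of fixed length, and binding was not measured. Other forms of each element were not searched, so a gene without a match here may still hold such a site.

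Library totals ran from 25293468 to 34759293 counts. Levels are given as CPM, the count scaled to the size of its library after trimmed mean of M-values (TMM) normalisation, and fold changes as log2 values from the quasi-likelihood fit of edgeR with their standard error (SE). A gene was called at an adjusted p under 0.05 and an absolute log2 fold change over 1, and an interaction term at the adjusted p alone. Keratinocyte genes marked every library as skin, with summed CPM of 7693 to 19120 for 4 basal keratinocyte markers, and the skeletal muscle markers spread unevenly, from 206.5 to 2201 within PBS. Over all genes, scaling by library size alone moved the median log2 fold change against PBS to -0.128 with IL-17A, to -0.165 with IL-36γ and to -0.168 with the combination. It turned the split of raised and lowered calls from 208 and 199 to 129 and 469 for IL-17A, from 992 and 385 to 822 and 698 for IL-36γ, and from 1426 and 1177 to 1204 and 1667 for IL-17A + IL-36γ.

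Slc7a11 (ENSMUSG00000027737, chr3:49892526-50443614, minus strand) had the largest fold changes of the 10 genes. Its level in the PBS libraries was 11.7, 17.98 and 6.00 CPM, and in the IL-17A libraries 37.0, 18.02 and 18.1 CPM. It reached 63.9, 120 and 36.6 CPM with IL-36γ. With IL-17A + IL-36γ it stood at 339, 215 and 129 CPM, above every library of the other groups. The lowest IL-17A library barely cleared the highest PBS library. The lowest IL-36γ library lay just under the highest IL-17A library, so those groups overlapped. Against PBS the log2 fold change was 1.03 (SE 0.511) for IL-17A, 2.63 (SE 0.522) for IL-36γ and 4.25 (SE 0.553) for IL-17A + IL-36γ, the last of these a 19.1-fold difference. Without the first IL-17A library the value for IL-17A was 0.57, and no setting tried made it a call.

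**Figure D1:**
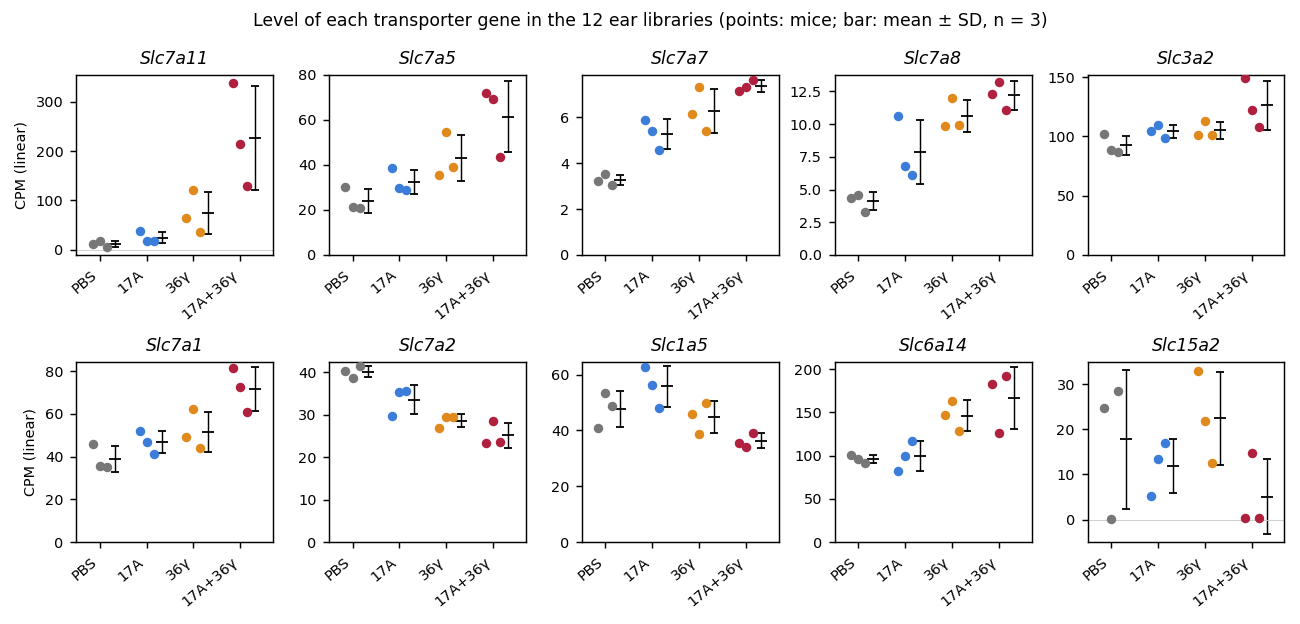
Each panel plots 1 gene, with the level in CPM on a linear vertical axis and the 4 groups along the horizontal axis. Points are single mice and the bar beside them is the mean ± SD of 3. Slc7a11 rises out of the range of the other groups with IL-17A + IL-36γ (129 to 339 CPM), Slc3a2 stays between 87.2 and 149 CPM, and Slc15a2 is near 0 in 3 libraries.

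The light chains LAT1, y+LAT1 and LAT2 were also higher in the cytokine groups, over narrower ranges. Slc7a5 (chr8:121881150-121907694, minus strand), the carrier of leucine and other large neutral amino acids, measured 30.0, 21.1 and 20.6 CPM in PBS, 38.4, 29.8 and 29.0 with IL-17A, 35.4, 54.7 and 38.8 with IL-36γ and 71.9, 69.0 and 43.3 with IL-17A + IL-36γ. The third of the IL-17A + IL-36γ libraries lay within the IL-36γ range, and all 3 were above PBS. Its log2 fold change against PBS was 0.44 (SE 0.223), 0.85 (SE 0.222) and 1.36 (SE 0.224) for IL-17A, IL-36γ and the combination.

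Slc7a8 (chr14:54722209-54781946, minus strand), which carries small as well as large neutral amino acids, measured 4.37, 4.62 and 3.30 CPM in PBS, 10.6, 6.78 and 6.12 with IL-17A, 9.88, 12.0 and 9.92 with IL-36γ and 12.3, 13.2 and 11.1 with IL-17A + IL-36γ. No library of a cytokine group came down to PBS. IL-36γ overlapped IL-17A and the combination, which did not overlap each other. The log2 fold changes were 0.93 (SE 0.203), 1.37 (SE 0.201) and 1.57 (SE 0.202), and without the first IL-17A library the value for IL-17A was 0.62.

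Slc7a7 (chr14:54369442-54417780, minus strand), which exports arginine and lysine in exchange for neutral amino acids and is known from macrophages and epithelia, measured 3.24, 3.51 and 3.06 CPM in PBS, 5.86, 5.39 and 4.59 with IL-17A, 6.12, 7.31 and 5.41 with IL-36γ and 7.14, 7.32 and 7.63 with IL-17A + IL-36γ. Every cytokine library was above every PBS library. The log2 fold changes were 0.69 (SE 0.142), 0.94 (SE 0.141) and 1.17 (SE 0.141). Of its annotated exon bases 7.0% lie opposite Oxa1l, and since the strand setting of the counting is not given in the sources used here, reads of that stretch may belong to either gene.

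Slc3a2, the shared heavy chain (chr19:8706882-8723369, minus strand), was among the most abundant of the 10 genes per kilobase of exon in every group. It measured 101.6, 88.3 and 87.2 CPM in PBS, 105, 110 and 99.0 with IL-17A, 101, 113 and 101 with IL-36γ and 149, 122 and 108 with IL-17A + IL-36γ. Only the last group stood clear of PBS. The log2 fold changes were 0.18 (SE 0.108), 0.19 (SE 0.108) and 0.45 (SE 0.108), and those for IL-17A and IL-36γ came down to 0.01 and 0.04 when libraries were scaled by size alone.

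**Figure D2:**
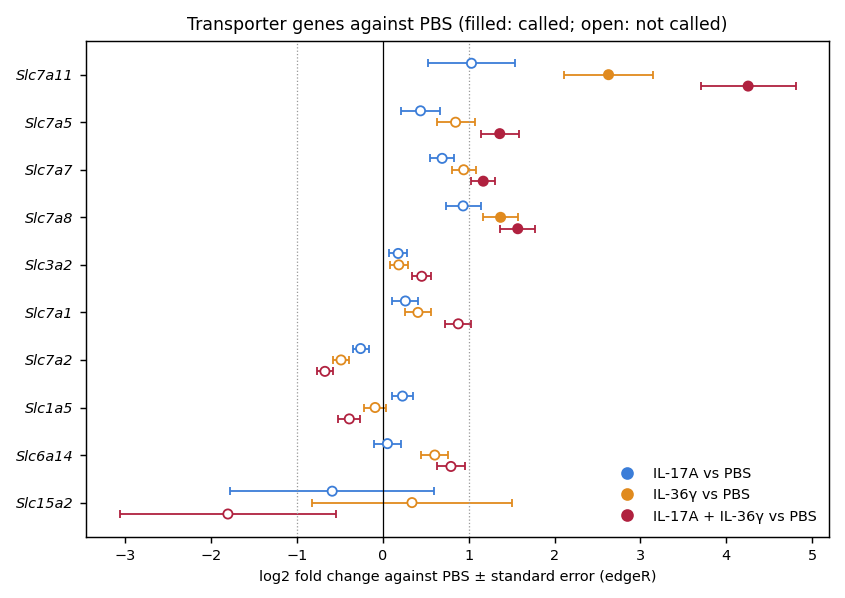
The horizontal axis gives the log2 fold change against PBS with its SE for each of the 10 genes, in 1 colour per cytokine group. Filled points were called, open points were not, and dotted lines mark a log2 fold change of 1 in either direction. Slc7a11 lies at 2.63 and 4.25 for IL-36γ and the combination, and the wide bars of Slc15a2 cross 0 for IL-17A and IL-36γ.

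The cationic amino acid transporters went apart. Slc7a1, the widespread arginine and lysine importer CAT1 (chr5:148327410-148399904, minus strand), measured 46.1, 35.6 and 35.3 CPM in PBS, 51.9, 47.0 and 41.4 with IL-17A, 49.3, 62.1 and 43.9 with IL-36γ and 81.4, 72.7 and 61.1 with IL-17A + IL-36γ. Slc7a2, the CAT2 gene (chr8:40862396-40922308, plus strand), measured 40.4, 38.8 and 41.4 CPM in PBS, 29.7, 35.5 and 35.6 with IL-17A, 26.9, 29.5 and 29.6 with IL-36γ and 23.5, 28.5 and 23.5 with IL-17A + IL-36γ. All 9 cytokine libraries were below PBS for Slc7a2, while for Slc7a1 IL-17A + IL-36γ alone stood clear of PBS, on the high side. The log2 fold changes for IL-17A, IL-36γ and the combination were 0.26, 0.41 and 0.88 (SE 0.152 each) for Slc7a1. They were -0.26 (SE 0.0939), -0.49 (SE 0.0941) and -0.67 (SE 0.0948) for Slc7a2. The lincRNA gene Gm26584 lies opposite 6.95% of the exon bases of Slc7a2.

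Slc1a5, the glutamine exchanger (chr7:16781340-16798274, plus strand), was also lower with both cytokines. It measured 40.7, 53.2 and 48.8 CPM in PBS, 62.8, 56.3 and 48.2 with IL-17A, 45.7, 38.6 and 49.8 with IL-36γ and 35.6, 33.98 and 39.2 with IL-17A + IL-36γ. IL-17A alone was on the high side of PBS and overlapped it, whereas IL-17A + IL-36γ lay below PBS in all 3 libraries. The log2 fold changes were 0.23 (SE 0.125), -0.09 (SE 0.125) and -0.39 (SE 0.126).

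Slc6a14 (chrX:21714896-21742355, plus strand), a carrier known from mucosal epithelia, measured 100, 96.5 and 91.8 CPM in PBS and 82.7, 100 and 117 with IL-17A. It reached 147, 163 and 128 CPM with IL-36γ and 182, 126 and 192 with IL-17A + IL-36γ. IL-17A spread around PBS on either side, and both groups that received IL-36γ were above PBS and above IL-17A, overlapping each other. The log2 fold changes were 0.05 (SE 0.157), 0.60 (SE 0.158) and 0.79 (SE 0.158), and that for IL-17A changed sign to -0.11 when libraries were scaled by size alone.

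Slc15a2 (chr16:36750177-36784962, minus strand) did not follow the groups. Its counts were 889, 6 and 940 in PBS, 137, 401 and 420 with IL-17A, 990, 719 and 362 with IL-36γ and 8, 401 and 8 with IL-17A + IL-36γ. In CPM the 3 low libraries were at 0.170 in PBS and at 0.312 and 0.268 with IL-17A + IL-36γ, and the other 9 lay between 5.15 and 32.9. The ratio of the highest to the lowest library was 168 in PBS and 54.8 with IL-17A + IL-36γ, where the median over 12282 genes of at least 5 CPM on average was 1.17 and 1.16. In each of these groups 2 genes had a higher ratio. Its log2 fold change was -0.59 (SE 1.19), 0.34 (SE 1.17) and -1.81 (SE 1.26) against PBS. Without the second PBS library the value for IL-36γ was -0.24, and without the second IL-17A + IL-36γ library that for the combination was -5.94 and called lowered.

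The tested genes on either side of Slc15a2 had far narrower ranges. Eaf2, 7.9 kb away, ranged from 0.684 to 1.41 CPM over the 12 libraries, a 2.05-fold range. Ildr1, 23.4 kb to the other side, ranged from 1.338 to 1.996 CPM, or 1.49-fold, and was itself near the low end in the libraries low in Slc15a2, at 1.387, 1.366 and 1.338 CPM, with 1 IL-36γ library at 1.371 CPM. Cd86 and Iqcb1 ranged 1.91-fold and 1.73-fold. These neighbours were looked up after the values of Slc15a2 had been seen. Skeletal muscle markers, which also spread widely, summed to 2201 CPM in the PBS library that was low in Slc15a2. In the PBS libraries that were high in it they summed to 206.5 and 1851 CPM. With IL-17A + IL-36γ they summed to 212.1 and 814.2 CPM in the libraries low in Slc15a2 and to 120.3 CPM in the other. A link between muscle content and Slc15a2 was not tested.

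**Figure D3:**
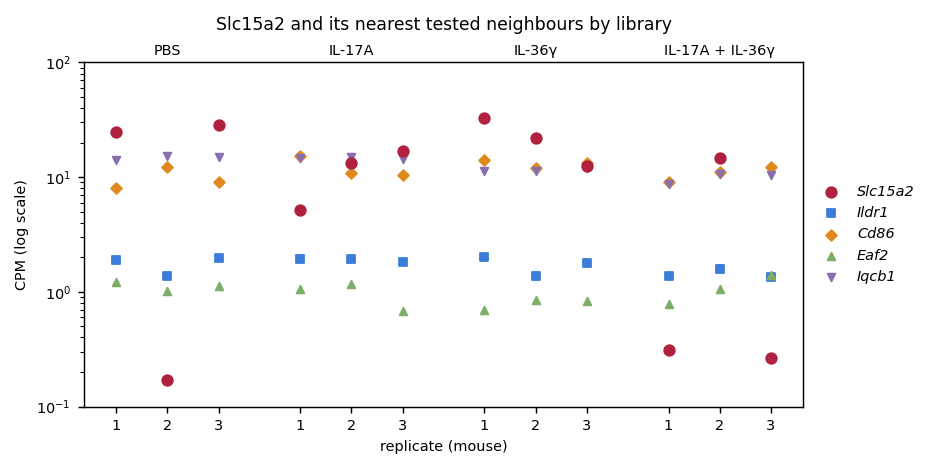
The vertical axis is the level in CPM on a log scale and each position along the horizontal axis is 1 mouse, in 4 groups of 3. Slc15a2 (round points) is at 0.170 CPM in 1 PBS library and at 0.312 and 0.268 CPM in 2 IL-17A + IL-36γ libraries, while Ildr1, Cd86, Eaf2 and Iqcb1 each stay within a 2.05-fold range.

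Read as calls, none of the 10 genes passed against PBS with IL-17A, 2 were called raised with IL-36γ (Slc7a11 and Slc7a8) and 4 with IL-17A + IL-36γ (Slc7a11, Slc7a8, Slc7a5 and Slc7a7). None was called lowered. Of all genes tested, 1.07% were called raised and 1.03% lowered with IL-17A, 5.11% and 1.98% with IL-36γ, and 7.35% and 6.06% with IL-17A + IL-36γ. The shares for IL-17A were unstable: the 208 raised and 199 lowered genes became 10 and 1 without the third PBS library, 26 and 7 without the first IL-17A library, 122 and 20 without the second PBS library, 141 and 71 without the second IL-17A library and 375 and 538 without the first PBS library. They became 9 and 0 when PBS and IL-17A were fitted alone. Since the same contrasts were in view when the genes were chosen, nothing is read from these shares. For IL-17A edgeR gave 3 of the 10 an unadjusted p under 0.05, and DESeq2 called none. The share of all genes with an unadjusted p under 0.05 was not computed, here or for the comparisons and lists below. Whether such counts exceed the share over all genes is therefore not known, and nothing is read from them. The median log2 fold change of the 10 was 0.245, 0.506 and 0.835, beside 0.0425, -0.015 and -0.0251 over all genes.

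Every library of the cytokine group was above every PBS library for 3 of the 10 genes with IL-17A, 5 with IL-36γ and 7 with IL-17A + IL-36γ, and every one was below for 1, 1 and 2. Over all genes tested the share above was 19.6%, 22.4% and 27%, and the share below 14%, 19.2% and 25.6%. The 3 comparisons share the PBS libraries.

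The combination was then set against each cytokine alone. Against IL-17A, Slc7a11 was the only one of the 10 called raised, with a log2 fold change of 3.22 (SE 0.526), and none was called lowered, where 4.46% of all genes were called raised and 4.49% lowered. Slc7a5 followed with 0.92 (SE 0.222) and Slc6a14 with 0.74 (SE 0.158), and Slc1a5 was at -0.62 (SE 0.126). Against IL-36γ none was called, where 0% of all genes were called raised and 0.0103% lowered. There edgeR gave 5 of the 10 an unadjusted p under 0.05, and DESeq2 called none. Slc7a11 had a log2 fold change of 1.63 (SE 0.490) there and was the only gene of the 10 whose libraries did not overlap, a state that held on the high side for 9.33% and on the low side for 11.3% of all genes.

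IL-36γ and IL-17A alone were also set against each other, and none of the 10 was called, with 5 at an unadjusted p under 0.05 in edgeR and 0 called by DESeq2. Of all genes 1.25% were called higher with IL-36γ and 0.366% higher with IL-17A. Slc7a11 was at a log2 difference of 1.60 (SE 0.500) with overlapping libraries, and without the third IL-36γ library it was called. The interaction term asks whether the difference with both cytokines departs from the sum of the single ones on the log2 scale. It was called for none of the 10, with 3 at an unadjusted p under 0.05, where 0.129% of all genes had a called positive and 0.423% a called negative term. For Slc7a11 the term was 0.59 (SE 0.699), so that its SE exceeded its size. DESeq2 called the term of Slc1a5, which was -0.53 (SE 0.178) in edgeR. Over all genes DESeq2 called 683 positive and 1030 negative terms where edgeR called 25 and 82, and leaving out 1 library took the edgeR counts from 0 and 1, without the first IL-36γ library, to 521 and 1013, without the first PBS library.

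Compared per kilobase of annotated exon, which allows genes to be set side by side, Slc6a14 and Slc3a2 were the most abundant of the 10 in PBS, at 28.0 ± 1.25 and 26.2 ± 2.27 CPM per kb (SD, n = 3), which did not differ beyond their spread. Slc1a5 (11.4 ± 1.52), Slc7a5 (6.44 ± 1.42), Slc7a2 (4.40 ± 0.147) and Slc7a1 (3.38 ± 0.533) followed. Slc7a7, Slc7a11 and Slc7a8 were lowest, at 0.987 ± 0.0683, 0.854 ± 0.430 and 0.819 ± 0.140 CPM per kb, within their spread of one another. With IL-17A + IL-36γ, Slc7a11 stood at 16.3 ± 7.59 CPM per kb, beside Slc7a5 at 16.6 ± 4.24 and Slc1a5 at 8.69 ± 0.643, and its libraries overlapped those of both. Slc6a14 and Slc3a2 remained ahead at 48.6 ± 10.4 and 35.8 ± 5.87 CPM per kb.

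The light chains that pair with 4F2hc were then taken as shares of their sum per kilobase. In PBS, Slc7a6 made up 63.8% ± 4.25 and Slc7a5 23.3% ± 5.22 (SD, n = 3), and Slc7a11 was at 3.05%, 4.57% and 1.59% in the 3 libraries. With IL-17A, Slc7a11 was at 7.46%, 4.18% and 4.70%, so that its lowest library fell within the PBS range. It took 14.3%, 21.6% and 7.97% with IL-36γ. With IL-17A + IL-36γ it took 41.1%, 31.5% and 24.6%, above all other libraries, and Slc7a6 was down to 18.01%, 20.2% and 30.7%. The share of Slc7a5 also stood higher with IL-17A + IL-36γ, at 34% ± 3.59, but without division by exon length it turned the other way, from 19.1% in PBS to 17.5%. Shares must sum to 100%, so a rise in 1 light chain lowers the rest. The level of Slc7a6 itself fell as well, by 0.72 on the log2 scale (SE 0.103) with IL-17A + IL-36γ against PBS (edgeR quasi-likelihood test, Benjamini-Hochberg adjusted p = 0.000226), without passing the fold threshold.

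**Figure D4:**
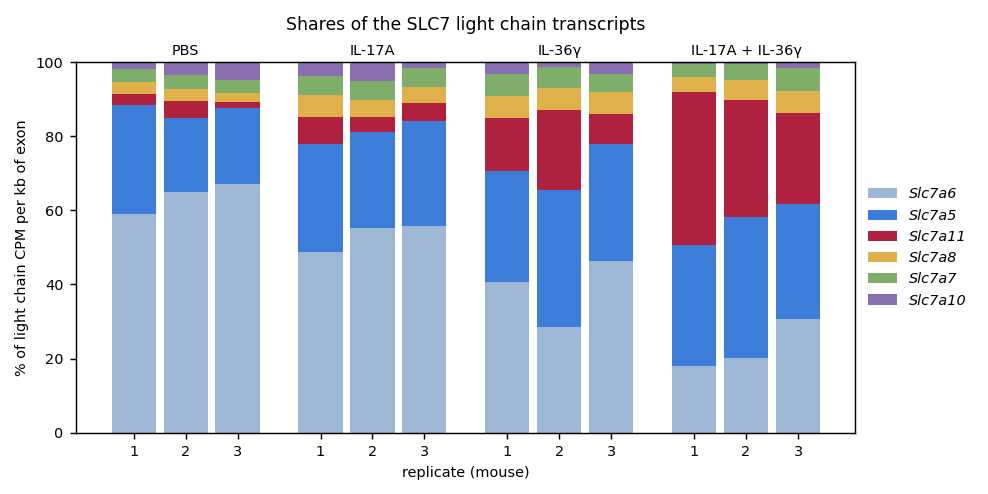
Each bar is 1 mouse and shows how the summed CPM per kb of 6 SLC7 light chain genes divides, in percent, with the 4 groups from left to right. Slc7a11 takes 1.59% to 4.57% in PBS and 24.6% to 41.1% with IL-17A + IL-36γ, and Slc7a6 takes 59.1% to 67.3% and 18% to 30.7%.

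The light chains together summed to 27.6 ± 0.595 CPM per kb in PBS and 48.6 ± 10.8 with IL-17A + IL-36γ (SD, n = 3). Relative to Slc3a2 this was a ratio of 1.06 ± 0.0930 in PBS, 1.06 ± 0.124 with IL-17A, 1.17 ± 0.0643 with IL-36γ and 1.35 ± 0.107 with IL-17A + IL-36γ. The ratio lay between 1.23 and 1.42 in the last group and between 0.956 and 1.13 in PBS, which did not overlap. It rests on annotated exon lengths, 13922 bases for Slc7a11, and was not computed without that division. Slc7a11 itself was chosen with these differences in view.

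Several marker lists of infiltrating or activated cells were higher with cytokine, and others were not. Their calls are to be read beside the 5.11% of all genes called raised with IL-36γ and 7.35% with the combination. The 8 neutrophil markers summed to 107 to 191 CPM in PBS, 494 to 985 with IL-17A, 2385 to 4915 with IL-36γ and 7687 to 10120 with IL-17A + IL-36γ. With IL-17A + IL-36γ 7 of the 8 were called raised against PBS, and Ly6g was at 0 in all 3 PBS libraries. In the groups given IL-36γ, nearly all of the sum came from S100a8 and S100a9, which inflamed keratinocytes and macrophages also express. Their means were 12.5 and 17.95 CPM in PBS and 3359 and 4975 CPM with the combination. Of the rest, Csf3r went from 4.02 to 76.05 CPM and Cxcr2 from 5.14 to 42.3 CPM. Il1r2, the largest part of the sum in PBS, stood at 94.65 and 77.5 CPM and was not called. The 4 stress keratins Krt6a, Krt6b, Krt16 and Krt17 summed to 325 to 526, 578 to 2236, 2080 to 5487 and 6261 to 10590 CPM, with 3 of 4 called raised. Monocyte and macrophage markers, of which 7 of 9 were called raised with IL-36γ and with the combination, summed to 738 to 879 CPM in PBS, 1202 to 1576 with IL-17A, 1849 to 2046 with IL-36γ and 1753 to 2000 with the combination, so that the last groups overlapped. The 8 T cell markers summed to 27.9 to 29.1 CPM in PBS, 31.9 to 37.7 with IL-17A, 34.8 to 38.2 with IL-36γ and 32.7 to 35.4 with the combination. With the combination 3 were called raised. Cd3g and Cd3e went the other way, from means of 9.51 and 3.76 CPM in PBS to 5.83 and 2.43 CPM. All 5 proliferation markers were called raised with the combination. The part of each in the level of Slc7a11, Slc7a5, Slc7a7 or Slc7a8 was not tested.

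The genes whose log2 CPM followed Slc7a11 most closely over the 12 libraries were Sema4d (Pearson r = 0.986, Spearman rho = 0.979), Serpinb3c (0.983 and 0.965), Gm37857 (0.982 and 0.965), Ccnd3 (0.979 and 0.951) and Fgr (0.979 and 0.979). Sema4d encodes a semaphorin, Serpinb3c a serine protease inhibitor, Ccnd3 the cell cycle protein cyclin D3 and Fgr a Src-family kinase of myeloid cells. Serpinb3c was hardly detected, at 0.0466 CPM in PBS and 2.10 with IL-17A + IL-36γ. The 12 points share their 4 group levels, and for deviations from the group means the 5 correlations were 0.879 to 0.935. By Spearman's rho Gapdh and Cstdc5 came first with 1, and none of the 5 was among the top 5. Of the other 9 transporters, Slc7a5 was closest to Slc7a11 by Pearson r (0.937, at place 297 of all genes tested), whereas Slc7a8 was closest by Spearman's rho (0.958) and by deviations from the group means (0.781). Slc7a2 was opposed with r = -0.906.

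A wider list of 48 other amino acid and peptide transporters was described in the same fit, and 37 of them passed the filter. It was chosen by gene family with earlier results of these libraries known. With IL-17A none was called against PBS, although 10 of the 37 had an unadjusted p under 0.05 in edgeR and DESeq2 called 1. With IL-36γ 2 of the 37 were called raised and 2 lowered, where 5.11% and 1.98% of all genes were. With IL-17A + IL-36γ 4 were called raised and 5 lowered, where 7.35% and 6.06% of all genes were, and the median log2 fold change was 0.02.

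The genes raised by IL-17A + IL-36γ were led by Slc15a3, an endolysosomal transporter of histidine and peptides, with a log2 fold change of 1.54 (SE 0.316, edgeR quasi-likelihood adjusted p = 0.00218). Slc6a20b, a relative of the proline transporters, followed with 1.37 (SE 0.324, adjusted p = 0.00511) from 5 to 14 counts per PBS library. Slc1a1, a glutamate, aspartate and cysteine carrier, had 1.13 (SE 0.263, adjusted p = 0.00457), and Slc43a2, a carrier of large neutral amino acids named outside the naming rule, had 1.03 (SE 0.0989, adjusted p = 2.46e-05). Slc15a3 and Slc1a1 were also called raised with IL-36γ alone, with log2 fold changes of 1.24 (adjusted p = 0.0136) and 1.04 (adjusted p = 0.0128). Slc15a3 was 5.14 ± 2.21 CPM in PBS and 14.97 ± 2.27 with IL-17A + IL-36γ (SD, n = 3).

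The lowered genes were Slc36a2, a proton-coupled carrier of glycine and proline, Slc43a1, another carrier of large neutral amino acids, Slc38a3, a glutamine and histidine carrier, Slc7a10 and Slc1a2, a glutamate carrier. Slc36a2 fell by 2.11 (SE 0.375, adjusted p = 0.000878), Slc43a1 fell by 1.99 (SE 0.213, adjusted p = 4.08e-05) and Slc38a3 fell by 1.97 (SE 0.264, adjusted p = 0.000149) on the log2 scale in the edgeR quasi-likelihood test. The other two are named outside the naming rule: Slc7a10, also a 4F2hc partner, fell by 1.52 (adjusted p = 0.0477), with libraries that overlapped PBS, and Slc1a2 fell by 1.10 (adjusted p = 0.00423). Slc43a1 and Slc36a2 were called lowered with IL-36γ alone too, where they fell by 1.33 (adjusted p = 0.000922) and by 1.05 (adjusted p = 0.0399). Slc43a1 was 28.9 ± 7.001 CPM in PBS, 19.0 ± 0.581 with IL-17A, 11.5 ± 3.01 with IL-36γ and 7.26 ± 1.23 with IL-17A + IL-36γ.

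Markers of fat were lower with the combination too, and those of sebaceous gland and muscle in part. Of all genes, 6.06% were called lowered there. The 5 adipocyte markers summed to 155 to 197 CPM in PBS and 51.4 to 95.2 with IL-17A + IL-36γ, and all 5 were called lowered. The 5 sebaceous gland markers summed to 5563 to 9000 and 2805 to 3532 CPM, but nearly all of this was Scd1, the only one called lowered, and Awat1 and Elovl3 had log2 fold changes of -0.21 and -0.08. The 8 muscle markers summed to 206.5 to 2201 and 120 to 814 CPM, which overlapped, with 1 called lowered. No marker of these 3 lists was at 0 in any library. The part of these tissues in the lowered transporters was not tested.

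**Figure D5:**
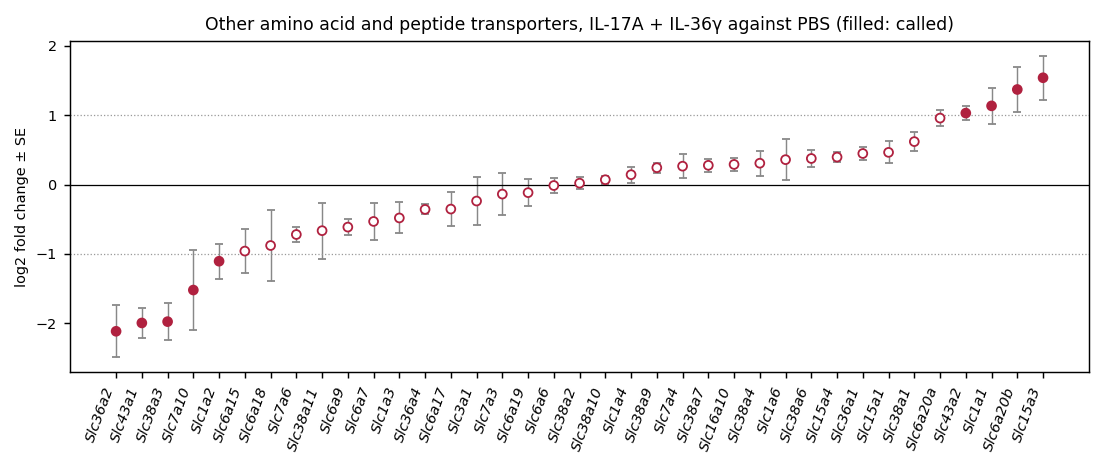
Points give the log2 fold change of IL-17A + IL-36γ against PBS with its SE for the 37 other transporters that passed the filter, sorted by size, with called genes filled and dotted lines at a log2 fold change of 1 in either direction. The 5 filled points at one end reach from Slc36a2, which fell by 2.11, to Slc1a2, which fell by 1.10, and the 4 at the other from Slc43a2 at 1.03 to Slc15a3 at 1.54.

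Against IL-17A, the same list of 37 held 2 raised and 6 lowered genes with IL-17A + IL-36γ, where 4.46% and 4.49% of all genes were called. The raised ones were Slc6a20b, at a log2 fold change of 1.42 (adjusted p = 0.00852), and Slc15a3, at 1.01 (adjusted p = 0.0269), in the edgeR quasi-likelihood test. The largest decreases were those of Slc36a2 (-2.18, adjusted p = 0.00151), Slc7a10 (-1.83, adjusted p = 0.0287) and Slc38a3 (-1.78, adjusted p = 0.00072). Against IL-36γ none was called, while 9 had an unadjusted p under 0.05 and DESeq2 called 1.

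Genes on the metabolic routes served by these carriers were described in 3 further lists. They are to be read against the 7.35% of all genes called raised and 6.06% called lowered with the combination against PBS. For the combination against IL-17A these shares were 4.46% and 4.49%, and for IL-36γ against PBS 5.11% and 1.98%. Of 18 glutathione genes, none was called with IL-17A or IL-36γ alone, with 8 and 9 at an unadjusted p under 0.05 in edgeR. With IL-17A + IL-36γ, Gpx2, an epithelial glutathione peroxidase, rose by 1.58 (SE 0.292, adjusted p = 0.00115) and Cth, which makes cysteine from cystathionine, by 1.11 (SE 0.194, adjusted p = 0.000814). Cbs, which makes the cystathionine, fell by 1.25 (SE 0.136, adjusted p = 4.48e-05). The other 15 did not pass. Against IL-17A, Dpep1, a dipeptidase of glutathione breakdown, fell by 1.01 (adjusted p = 0.000585), and none was called against IL-36γ, with 7 at an unadjusted p under 0.05.

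Of 16 tested arginine and polyamine genes, 3 were called raised and 1 lowered with IL-17A + IL-36γ against PBS. Arg1, the arginase of cytosol, rose by 2.82 (SE 0.588, adjusted p = 0.00239), from 5.46 ± 0.427 to 38.6 ± 29.5 CPM (SD, n = 3). Nos2, the inducible nitric oxide synthase, rose by 1.51 (SE 0.507, adjusted p = 0.0304) from 6 to 10 counts per PBS library, and Ass1, which rebuilds arginine from citrulline, by 1.06 (SE 0.169, adjusted p = 0.000446). Nos1, the neuronal isoform that muscle also holds, fell by 2.38 (SE 0.537, adjusted p = 0.00384). The same 4 genes were called in the same directions against IL-17A, where Arg1 had a log2 fold change of 2.18 and Nos1 of -2.47. None was called with IL-17A or IL-36γ alone, with 6 and 7 at an unadjusted p under 0.05 in edgeR.

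Of 22 amino acid response genes, mostly targets of ATF4, 4 were called raised and 1 lowered with IL-17A + IL-36γ against PBS. The other 17 were not called, and the median log2 fold change of the list was 0.333. Among the 17, named outside the naming rule, Asns went from a mean of 37.7 CPM in PBS to 69.8. Others were lower, with Ddit3 at 11.5 and 9.61 CPM, Trib3 at 6.19 and 5.44, Ddit4 at 36.7 and 22.7 and Nupr1 at 95.8 and 50.3. Shmt2, Phgdh and Mthfd2, enzymes of serine and mitochondrial one-carbon metabolism, rose by 1.26 (adjusted p = 4.73e-05), 1.14 (adjusted p = 8.91e-05) and 1.09 (adjusted p = 6.1e-05) in the edgeR quasi-likelihood test. Eif4ebp1, a repressor of cap-dependent translation named outside the naming rule, rose by 1.06 (adjusted p = 0.000245). Stc2, the secreted stanniocalcin 2, fell by 1.96 (adjusted p = 0.00273). Atf3 alone was called with IL-36γ, with a log2 fold change of 1.52 (SE 0.481, adjusted p = 0.0337), a call that was lost without the first or the second IL-36γ library, and none with IL-17A, with 8 at an unadjusted p under 0.05 in edgeR. Against IL-17A, Shmt2 rose by 1.00 (adjusted p = 0.00049) and Stc2 and Vldlr fell by 1.33 (adjusted p = 0.0289) and by 1.02 (adjusted p = 0.00039). The arginine and the response lists gave no call against IL-36γ, with 5 genes in each at an unadjusted p under 0.05 in edgeR. Over the 3 lists DESeq2 called 1 gene with IL-17A, 1 with IL-36γ and 1 in the combination against IL-36γ. Over all genes it called 259 raised and 324 lowered, 1022 and 439, and 20 and 64 in these comparisons.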

How the data were processed

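RNA was prepared with a stranded total RNA kit. The authors aligned reads to mm10 with STAR 2.5.2b and made raw counts for Ensembl genes with featureCounts (Subread 1.5.1), deposited with 1 column per mouse. The annotation release and the strand setting are not given in the sources used here. The deposited comparison tables hold the authors' DESeq2 1.30.0 fold changes and p-values, of which none was used, and only their gene symbols were read. Here the counts were fitted with edgeR 4.0.16 in R 4.3.3 (TMM, filterByExpr with a minimum count of 10, glmQLFit and glmQLFTest, 12 libraries, 4 group means), with Benjamini-Hochberg adjustment over all 19408 genes tested. The code was run on simulated counts whose spread followed the trend over genes. That run did not cover genes of unusual spread such as Slc15a2, or a deviating library. DESeq2 1.42.0 was an alternative. Exon lengths and coordinates are from GENCODE vM21 (GRCm38), promoters from RefSeq (GRCm38.p6). The 10 genes, the lists and the markers were chosen with earlier results of these data known. In each list and comparison up to 3 raised and 3 lowered genes with the largest fold change were named. The same replicate numbers across groups do not mark shared mice. Each p-value sets a difference between groups against the spread between mice of 1 experiment. That spread was estimated over the 4 groups, with information shared between genes.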

Additional observations from a re-analysis of the deposited data

How the results depend on the processing

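The calls of Slc7a11 against PBS with IL-36γ and with the combination, and against IL-17A with IL-17A + IL-36γ, held in all 8 other settings and without each of the 12 libraries. No called value changed sign in any setting. Counts were low for Slc6a20b and Nos2, and for Slc15a2 in its low libraries. The setting "at least 10 counts in every library" removed these genes.

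Without the fold threshold the calls were 2, 6, 9 and 8 of the 10 genes (IL-17A, IL-36γ and the combination against PBS, then the combination against IL-17A), 2, 15, 22 and 20 of the other transporters with 4 for IL-36γ against IL-17A, and 7, 19, 33 and 26 of the metabolic lists together with 4. The share of all genes that passed without the fold threshold was not computed, so nothing is read from these counts. Without a filter on low counts, Slc7a11 made 1 call against IL-36γ and 1 for IL-36γ against IL-17A, the other transporters made 1 call each in those comparisons and 1 in the interaction, and the metabolic lists gave 1 with IL-17A, 3 with IL-36γ and 2 in the interaction. Fitting only the groups compared gave 1 of the 10 genes for IL-36γ against IL-17A and 2 of the metabolic lists with IL-36γ. Scaling by library size alone gave 1 other transporter with IL-17A. DESeq2 gave 1 of the 10 genes in the interaction. Among the other transporters it gave 1 with IL-17A, 1 against IL-36γ, 1 for IL-36γ against IL-17A and 2 in the interaction. Among the metabolic lists, of 18, 16 and 22 tested genes, it gave 1 with IL-17A, 1 against IL-36γ and 7 in the interaction. Over all 19408 genes it called 259 raised and 324 lowered with IL-17A, and 20 and 64 against IL-36γ. In the interaction it called 683 positive and 1030 negative terms. Nothing is read from the counts of the lists in these settings. DESeq2 on only the groups compared, chosen after seeing the data, gave 2 and 1 other transporters for IL-17A + IL-36γ against IL-36γ and IL-36γ against IL-17A, and 2 and 1 metabolic genes with IL-36γ and against IL-36γ. The cause of these moves was not tested. Without division by exon length, the share of Slc7a11 was 9.3%, 16.0%, 35.7% and 61.5%.

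The replicate numbers name different mice in each group. Deviations of same-numbered libraries correlated at -0.199 to 0.352 (median 0.097), over 0.1 in 9 of 18 pairs. Those of differently numbered libraries correlated at -0.503 to 0.364 (median -0.05), over 0.1 in 9 of 36 pairs. Of the 12 libraries, 8 correlated best with their own number. Whether a number stands for shared handling is not stated and was not tested. With the number as a replicate block, 1 of the 10 genes was called for IL-36γ against IL-17A, 1 other transporter in the interaction, and 1, 2 and 4 metabolic genes with IL-17A, with IL-36γ and in the interaction. Over all genes the block took the interaction calls from 25 positive and 82 negative to 391 and 492.

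Leaving out each library in turn gave 0 to 1, 2 to 3, 4 to 5 and 1 to 2 calls of the 10 genes in the comparisons first named, 0 to 0 against IL-36γ, 0 to 1 for IL-36γ against IL-17A and 0 to 0 in the interaction. For the other transporters it gave 0 to 0, 1 to 5, 5 to 12 and 6 to 9, and 0 to 1 in each of the rest. The fewest came without the third PBS or second IL-36γ library (1 with IL-36γ) and without the first IL-17A + IL-36γ library (5 against PBS). For the metabolic lists it gave 0 to 1, 0 to 3, 9 to 14 and 4 to 8, 0 to 1 against IL-36γ, 0 to 0 for IL-36γ against IL-17A and 0 to 4 in the interaction. With IL-36γ, 0 metabolic genes were called without the first or the second IL-36γ library and 3 without the first PBS library. Against IL-17A, 4 metabolic genes were called without the second IL-17A or the first IL-17A + IL-36γ library, and 5 without the second IL-17A + IL-36γ library. The share of Slc7a11 ranged from 2.32% to 3.81% in PBS, 4.44% to 6.08% with IL-17A, 11.1% to 18% with IL-36γ and 28.0% to 36.3% with IL-17A + IL-36γ.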
